A study of Homo sapiens with 6 samples.

Results

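Human mitochondrial DNA carries its own small set of genes, and the RNA-seq table of M14 cells lists 37 of them among 57820 genes. They were taken as every row whose gene symbol begins with MT-, which gave 13 protein-coding genes, 2 ribosomal RNA genes and 22 transfer RNA genes. M14 is a human melanoma line, and the cells stably carried a doxycycline-inducible short hairpin RNA against STAG2, a subunit of the cohesin complex that holds DNA loops together. The study maintained its stable populations with hygromycin, blasticidin or puromycin, and its methods do not say which was used for these cells. STAG2 WT cells were grown for 5 days without doxycycline and STAG2 KD cells for 5 days with it, with 3 libraries in each group. The study describes its samples as biologically independent, while the labels name no separate cultures. Every p below rests on the spread between these libraries or, in fits that pair replicate numbers, on the spread left within those pairs. All KD libraries and no WT library had doxycycline, an antibiotic known to act on the mitochondrial ribosome, so the loss of STAG2 and the drug cannot be told apart in any comparison here.

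Mitochondrial DNA is read from both of its strands into long transcripts. The heavy-strand transcript holds both ribosomal RNAs and all but 1 of the protein genes, and the light-strand transcript holds MT-ND6 and some of the transfer RNAs. In the usual account, called the tRNA punctuation model, enzymes cut out the transfer RNAs and thereby free the messenger and ribosomal RNAs that lie between them. Genes of the same transcript can therefore end up at very different levels, through differences in cutting, tail addition and decay. The proteins are core subunits of respiratory complexes I, III and IV and of ATP synthase, and all other proteins of the system, RNA polymerase and ribosomal proteins included, are made from nuclear genes.

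Some neighbouring genes have a transfer RNA between them and others touch or overlap, and the results below turn on both kinds of junction. The sequences shown are the heavy-strand transcript's sense on GRCh37, whose mitochondrial sequence is 16569 bases long, each with 20 bases on either side of the part in capitals. In the first 3, capitals mark the bases annotated to both genes, namely 46 bases for MT-ATP8 and MT-ATP6, 7 bases for MT-ND4L and MT-ND4, and 1 base for MT-ATP6 and MT-CO3. In the last 2, capitals mark the transfer RNA between the genes, MT-TG of 68 bases and MT-TV of 69 bases.
MT-ATP8 to MT-ATP6, chrM:8507-8592: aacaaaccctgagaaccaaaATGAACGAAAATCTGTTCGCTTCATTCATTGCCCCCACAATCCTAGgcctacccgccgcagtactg
MT-ND4L to MT-ND4, chrM:10740-10786: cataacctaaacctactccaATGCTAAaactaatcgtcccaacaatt
MT-ATP6 to MT-CO3, chrM:9187-9227: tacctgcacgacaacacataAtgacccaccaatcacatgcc
MT-CO3 to MT-ND3, chrM:9971-10078: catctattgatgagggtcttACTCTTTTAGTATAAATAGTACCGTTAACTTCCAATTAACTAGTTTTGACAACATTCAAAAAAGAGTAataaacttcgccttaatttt
MT-RNR1 to MT-RNR2, chrM:1582-1690: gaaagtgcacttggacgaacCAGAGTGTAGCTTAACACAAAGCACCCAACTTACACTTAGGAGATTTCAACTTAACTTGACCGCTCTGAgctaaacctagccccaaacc
At the MT-ATP6 to MT-CO3 junction the stop codon of the former gives its last base to the start codon of the latter, and no transfer RNA marks the cut.

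The libraries were first checked against their labels. STAG2 was at 66.4, 34.7 and 28.8 CPM (counts scaled to library size, with edgeR's TMM factors) in WT replicates 1 to 3. It was at 16.0, 7.30 and 6.70 CPM in KD replicates 1 to 3, so all KD libraries lay below all WT libraries. The log2 fold change was -2.12 (standard error, SE, 0.43, adjusted p = 0.0342 in the quasi-likelihood test of edgeR). The adjusted p ran from 0.0183 to 0.168 with each library left out in turn, and was above 0.05 without WT replicate 2 or 3 or KD replicate 2 or 3. Libraries with the same replicate number deviated together, and with a replicate block the adjusted p of STAG2 from edgeR was 0.000104. Depth ran from 24895998 expected counts in WT replicate 1 to 35181733 in WT replicate 2. At these depths 3 counts correspond to between 0.0869 and 0.112 CPM per library, a floor that covers counting error only, while each mitochondrial protein gene had at least 6027 counts in every library.

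The replicate 1 libraries of both groups stood apart from the others. Nuclear RNAs that carry no poly(A) tail, a list of 15 such as the signal recognition particle RNA RN7SL1, summed to 813 CPM in WT replicate 1 and 679 CPM in KD replicate 1. In the other libraries the sum lay between 93.8 and 217 CPM, although all libraries were made from poly(A)-selected RNA. The 8 melanocyte markers fixed for the identity check were all detected and summed to 6304 CPM in WT replicate 1, 2604 CPM in KD replicate 1 and between 1194 and 1914 CPM elsewhere. PMEL, a structural protein of pigment granules, was the most abundant of them in WT replicate 1 at 3367 CPM. Its log2 fold change was -1.26 (edgeR adjusted p = 0.462), and -1.07 (edgeR adjusted p = 0.00179) with the replicate block.

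Some genes of the marker lists passed when KD was compared with WT, at a threshold of 0.05 on the adjusted p from edgeR. No list was tested as a whole. Of the 8 melanocyte markers 1 was lower in KD, the calcium-binding protein gene S100B (log2 fold change -1.36, edgeR adjusted p = 0.00949), and with the replicate block 6 were lower. Over all tested genes 0.839% were lower in KD, and 4.42% with the block. TYR of the same list went the other way without passing, with a log2 fold change of 0.35 (edgeR adjusted p = 0.792). With the block it was 0.51 (edgeR adjusted p = 0.129). SOX10, a transcription factor of the melanocyte lineage, was at 571.8, 670.4 and 613.4 CPM in WT and at 323.6, 473.4 and 365.9 CPM in KD. The SOX10 groups did not overlap, and its adjusted p from edgeR was 0.151, or 0.0123 with the block. The 3 keratinocyte markers summed to 28.7, 36.7 and 44.3 CPM in WT, against 18.0, 25.7 and 27.6 CPM in KD, without overlap. Most of that was KRT10 (edgeR adjusted p = 0.360, or 0.0941 with the block), while KRT5 was at 0 in all KD libraries and at most 0.290 CPM in WT. The 4 fibroblast markers summed to 3.54, 86.7 and 58.6 CPM in WT, against 1.40, 20.7 and 18.9 CPM in KD, lowest in the replicate 1 libraries. Nearly all of it was the collagen gene COL1A1, with a log2 fold change of -1.92 (edgeR adjusted p = 0.462), and of -1.67 (edgeR adjusted p = 0.00232) with the block. Of the 4 leukocyte markers, which summed to 26.2, 39.9 and 37.3 CPM in WT, against 127, 90.8 and 90.5 CPM in KD, nearly all counts came from CD68, a lysosomal protein gene. CD68 was higher in KD (log2 fold change 1.59, edgeR adjusted p = 0.00855), while the T cell gene CD3E was at 0 in all 6 libraries. Of 11 tested RNAs without a tail 0 passed, and with the block 2 were lower, RN7SK and RPPH1 (edgeR adjusted p = 0.0470 and 0.0480), against 4.42% of all tested genes. The part of these differences in the mitochondrial values was not tested. The main summaries below are also given without WT replicate 1 and, as a choice made after seeing the data, without the replicate 1 libraries of both groups.

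Mitochondrial RNA as a whole took parts of the WT and KD libraries that overlapped. The 37 genes held 5.07% of all expected counts in WT replicate 1, 2.12% in WT replicate 2 and 2.34% in WT replicate 3. They held 2.94%, 2.81% and 2.25% in KD replicates 1 to 3. WT replicate 1 was the highest of the 6 libraries, and the remaining 5 libraries of the groups overlapped. In bulk RNA, less mitochondrial RNA per cell and fewer cells that hold much of it cannot be told apart.

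The protein genes and the ribosomal RNA genes did not follow the same order. Summed over the 13 protein genes, the level was 38185, 18489 and 21644 CPM in WT, against 18950, 22946 and 18317 CPM in KD. The KD mean was 0.769 of the WT mean, 1.00 of it (the ratio of the means) without WT replicate 1 and 1.03 of it without both replicate 1 libraries, so the lower KD mean rested on that library. Summed over the 2 ribosomal RNA genes, the level was 8836, 3117 and 3125 CPM in WT, against 8634, 6679 and 4462 CPM in KD. Here the KD mean was 1.31 times the WT mean, 2.11 times it without WT replicate 1 and 1.78 times it without both replicate 1 libraries. With the replicate 1 libraries set aside in both groups, the ribosomal RNA sums of KD lay above those of WT, while the protein gene sums overlapped. A lack of overlap is easier to reach with so few libraries.

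**Figure D1:**
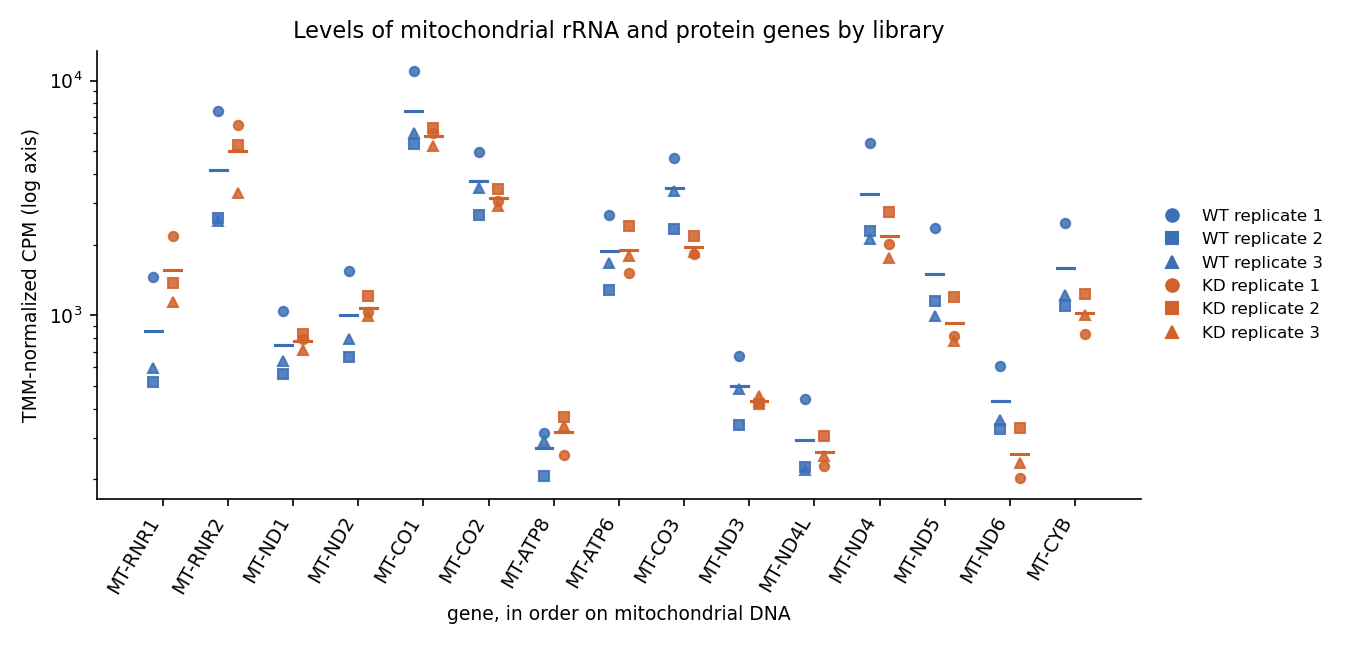
TMM-normalized CPM (log axis) of the 2 ribosomal RNA and 13 protein genes in each library, with WT in blue, KD in orange, a symbol for each replicate number and a bar at each group's mean (n = 3). WT replicate 1 is the highest WT library for every gene, and MT-CO3 is the only gene of the plot whose KD libraries all lie below all WT libraries.

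No protein gene and no ribosomal RNA gene passed the main test, which used no replicate block, when KD was compared with WT. In edgeR's quasi-likelihood test, with a threshold of 0.05 on the adjusted p, 2.59% of all 15605 genes tested passed, 1.75% as higher and 0.839% as lower in KD. Of the 13 protein genes 0 passed in either direction and 2 (MT-CO3 and MT-ND6) had an unadjusted p under 0.05 from edgeR, as had 14.8% of all tested genes. Their log2 fold changes had a median of -0.24, with 4 above and 9 below 0, where the median over all tested genes was -0.03. Without WT replicate 1 the median was 0.03, with 8 above and 5 below 0, and without both replicate 1 libraries it was 0.05, with 9 above and 4 below 0. In these fits 0 of the 13 passed, against 3.22% and 4.73% of all genes tested in each. DESeq2 called 1 of the 13, against 6.28% of its genes, and limma-voom called 0, against 2.64%.

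With the replicate block, which compares libraries of the same number, 9.52% of all tested genes passed, 5.10% as higher and 4.42% as lower. In that fit 1 of the 13 protein genes was lower, MT-CO3, and 1 of the 2 ribosomal RNA genes was higher, MT-RNR1. The lowest adjusted p among the other protein genes was 0.107, for MT-ND6, from the same edgeR fit.

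The ribosomal RNAs are the catalytic and structural core of the mitochondrial ribosome. MT-RNR1 (ENSG00000211459, chrM:648-1601), the RNA of the small subunit, was at 1448, 519.5 and 597.5 CPM in WT and at 2180, 1373 and 1143 CPM in KD. All KD libraries exceeded WT replicates 2 and 3, but only KD replicate 1 exceeded WT replicate 1. Its log2 fold change was 0.87 (SE 0.40, edgeR adjusted p = 0.359), and 0.98 (SE 0.17, edgeR adjusted p = 0.00513) with the replicate block. Within replicate numbers 1 to 3, KD exceeded WT by 0.59, 1.40 and 0.94 on the log2 scale, so KD was above WT in each pair. Without WT replicate 1 the log2 fold change was 1.48 (edgeR adjusted p = 0.0235), and without both replicate 1 libraries it was 1.18 (edgeR adjusted p = 0.00913). With any other single library left out it lay between 0.56 and 1.03 and did not pass.

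MT-RNR2 (ENSG00000210082, chrM:1671-3229), the RNA of the large subunit, was at 7388, 2598 and 2528 CPM in WT and at 6454, 5307 and 3318 CPM in KD. The KD libraries lay between WT replicate 1 and the other WT libraries. Its log2 fold change was 0.27 (SE 0.43, edgeR adjusted p = 0.858), with pairwise differences of -0.20, 1.03 and 0.39 on the log2 scale. With each library left out in turn it ran from 0.00 without WT replicate 3 to 0.96 without WT replicate 1 (edgeR adjusted p = 0.105), and without both replicate 1 libraries it was 0.76 (edgeR adjusted p = 0.111). Ribosomal RNAs of mitochondria carry only short tails, so their recovery by poly(A) selection depends on the preparation. The replicate 1 libraries, which held the most untailed nuclear RNA, also held the most MT-RNR1 and MT-RNR2 of their groups, and the part of tail selection in these levels was not tested.

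Set against the messenger RNAs of the same libraries, MT-RNR1 differed between the groups without overlap. Its counts were 0.0379, 0.0281 and 0.0276 of the 13 protein genes' summed counts in WT, and 0.115, 0.0598 and 0.0624 of it in KD. The mean ratio in KD was 2.53 times that in WT (p = 0.1 in a two-sided exact permutation test, which cannot go lower with 3 libraries in each group). The same ratio for MT-RNR2 was 0.193, 0.141 and 0.117 in WT and 0.341, 0.231 and 0.181 in KD, which overlapped. Per count of MT-RNR2 there were 0.196, 0.200 and 0.236 counts of MT-RNR1 in WT and 0.338, 0.259 and 0.345 in KD, again without overlap and at the limit of the permutation test.

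Complex I, the entry point of NADH electrons, has the most mitochondrially encoded subunits. MT-ND1, MT-ND2, MT-ND3, MT-ND4, MT-ND4L, MT-ND5 and MT-ND6 together were at 12069, 5551 and 5600 CPM in WT, against 5495, 7048 and 5171 CPM in KD. The groups overlapped, and the KD mean was 0.763 of the WT mean, or 1.06 times it without WT replicate 1. MT-ND1 (log2 fold change 0.06, SE 0.26) and MT-ND2 (log2 fold change 0.11, SE 0.31), which lie near the start of the heavy-strand transcript, had the highest values of the 7. MT-ND5 (log2 fold change -0.69, SE 0.34) and MT-ND6 (log2 fold change -0.75, SE 0.29) had the lowest, and the adjusted p of all 7 from edgeR was 0.25 or more. Without WT replicate 1 the log2 fold changes were 0.37 for MT-ND1, 0.56 for MT-ND2, -0.02 for MT-ND4, -0.21 for MT-ND5 and -0.43 for MT-ND6, so the low values rested in part on that library. No test compared the 7 genes with each other.

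MT-ND6 (ENSG00000198695, chrM:14149-14673) is the protein gene read from the light strand. It was at 606.8, 328.4 and 358.3 CPM in WT and at 201.5, 331.3 and 234.8 CPM in KD. Only KD replicate 2 reached the range of WT, and the adjusted p from edgeR was 0.25. It was 0.0434 when genes with low counts were not filtered out, so the call depended on the filter, and 4.54% of all genes passed in that fit. Within replicate numbers the difference was -1.59, 0.01 and -0.61 on the log2 scale, so the pair of replicate 2 did not share the lower level of the others. The strand setting of the counting is not given in the sources used here, and without it reads of MT-ND6 and of heavy-strand RNA opposite to it cannot be told apart.

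Complex III passes electrons to cytochrome c, and MT-CYB, cytochrome b, is its subunit encoded here. MT-CYB was at 2473, 1093 and 1223 CPM in WT and at 831.7, 1233 and 998.1 CPM in KD. Its log2 fold change was -0.65 (SE 0.32, edgeR adjusted p = 0.411), and -0.18 without WT replicate 1. KD replicate 2 lay above WT replicates 2 and 3, and the difference was not larger than the spread between libraries.

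Complex IV, cytochrome c oxidase, held the most abundant messenger RNAs. Per kilobase of gene, MT-CO2 was at 5436 ± 1704, MT-CO1 at 4821 ± 1994 and MT-CO3 at 4422 ± 1517 CPM per kb in WT (SD, n = 3). These neighbours in the order did not differ beyond their spread. In KD the same 3 genes were at 4607 ± 413, 3774 ± 330 and 2491 ± 250 CPM per kb (SD, n = 3), and MT-CO3 then stood below MT-ATP6, at 2793 ± 677 CPM per kb (SD, n = 3), though within that gene's spread. The KD libraries were closer to each other than the WT libraries for each of these 3 genes.

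MT-CO3 (ENSG00000198938, chrM:9207-9990) encodes the third core subunit of complex IV. It was at 4698, 2324 and 3379 CPM in WT and at 1823, 2179 and 1858 CPM in KD. The groups did not overlap, but the gap between WT replicate 2 and KD replicate 2 was narrow. Over all tested genes, the CPM of KD and WT did not overlap in 22.3%, so the lack of overlap in 1 of 13 protein genes was not above that background. The log2 fold change of MT-CO3 was -0.83 (SE 0.27, edgeR adjusted p = 0.174), and it was -0.78 (SE 0.21, edgeR adjusted p = 0.0432) with the replicate block. DESeq2 gave an adjusted p of 0.0231 and limma-voom 0.166, so whether MT-CO3 passed depended on the fit. Without WT replicate 1 the log2 fold change was -0.55 (edgeR adjusted p = 0.238), and without both replicate 1 libraries it was -0.49 (edgeR adjusted p = 0.232). Within replicate numbers 1 to 3 the differences were -1.36, -0.09 and -0.86 on the log2 scale, the same direction in each pair.

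The catalytic subunit genes of complex IV had smaller differences. MT-CO1 had a log2 fold change of -0.35 (SE 0.29, edgeR adjusted p = 0.681) and MT-CO2 of -0.24 (SE 0.26, edgeR adjusted p = 0.774). Without WT replicate 1 both stood at 0.03, and without both replicate 1 libraries at 0.03 and 0.05, so their lower KD means rested on WT replicate 1.

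ATP synthase makes ATP from the proton gradient, and MT-ATP8 and MT-ATP6 encode subunits of its membrane part. Both are read from a shared messenger RNA, in overlapping frames. MT-ATP8 was at 316.0, 206.5 and 291.4 CPM in WT, against 253.6, 368.3 and 335.9 CPM in KD, and MT-ATP6 was at 2683, 1278 and 1676 CPM in WT, against 1510, 2410 and 1787 CPM in KD. The groups overlapped for both. Their log2 fold changes were 0.24 (SE 0.23) and 0.02 (SE 0.30), and the adjusted p from edgeR was 0.747 or more. Without WT replicate 1 they were both 0.36. Because the genes overlap by 46 bases, RSEM had to divide some of their reads, and the split between them is uncertain.

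**Figure D2:**
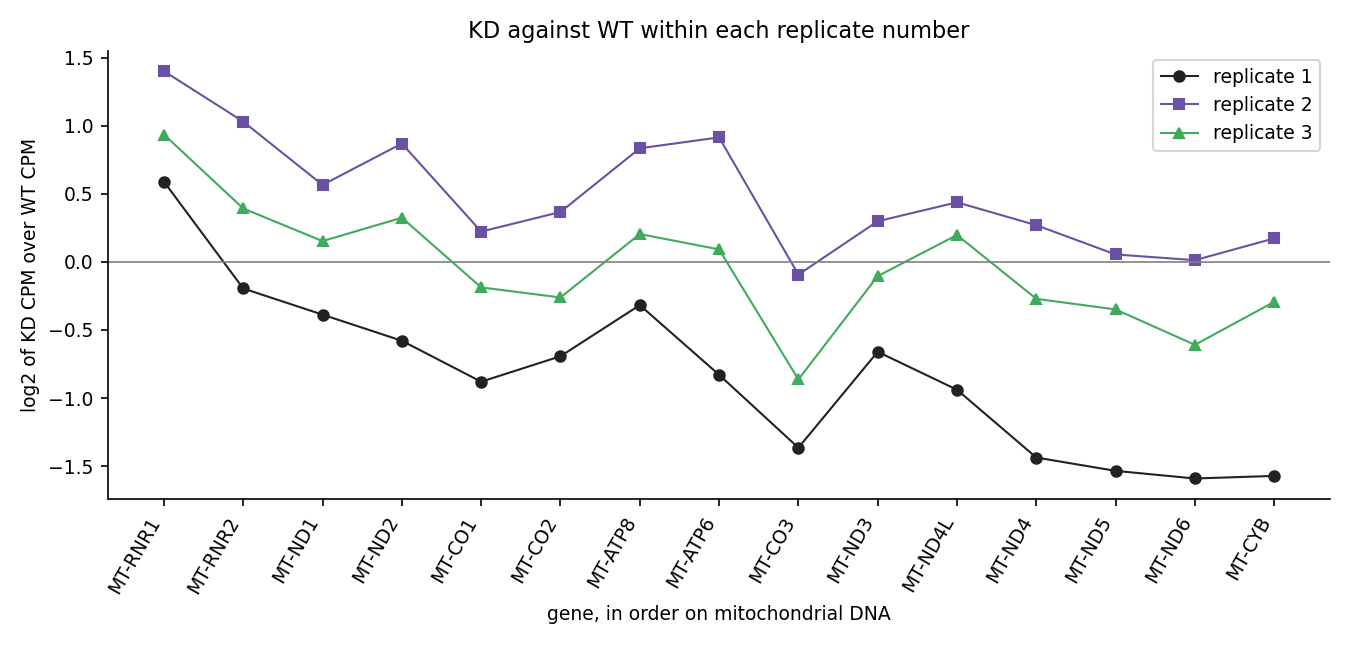
Log2 of KD CPM over WT CPM within each replicate number, for the 15 ribosomal RNA and protein genes in their order on mitochondrial DNA. The 3 lines are shifted against each other, with medians over the 13 protein genes of -0.88, 0.30 and -0.19 for replicates 1 to 3, and each has its highest value at MT-RNR1 and a low value at MT-CO3.

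The 3 pairs of libraries differed in level but had a like profile across the genes. In replicate 1 all 13 protein genes were lower in KD, in replicate 2 only 1 of 13 was lower, and in replicate 3 8 of 13 were lower. In each pair MT-RNR1 had the highest value of the 15 genes. In replicates 2 and 3 MT-CO3 had the lowest, and in replicate 1 it lay above the genes from MT-ND4 onward.

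Across the 14 heavy-strand genes, the log2 fold change tended to be lower with distance along the transcript. Pearson's r between the log2 fold change and the gene's start was -0.79 (Spearman's rho -0.76, 14 genes), and -0.80 without WT replicate 1. Within the pairs of replicates 1 to 3 it was -0.86, -0.73 and -0.69. For the 12 heavy-strand protein genes alone r was -0.63, so part of the relation came from the ribosomal RNA genes at the start. These values describe the 6 libraries; neighbouring genes share a transcript, so the points are not independent.

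The composition of the messenger RNA pool does not depend on the level of the whole pool in a library. Each gene's counts were taken as a share of the 13 protein genes' summed counts in the same library. For 6 of the 13 genes (46.2%) the shares of KD and WT did not overlap, with 3 higher and 3 lower in KD. By CPM only MT-CO3 of the 13 did not overlap, and shares of a pool have no counterpart over all genes. The count was 10 without WT replicate 3 and 8 without both replicate 1 libraries. A lack of overlap is easier to reach with fewer libraries, so these counts cannot be set against the 6. Shares within a pool sum to its whole and depend on each other, and the exact permutation test cannot go below p = 0.1 for any of them. Adjusted over the 13 genes by the Benjamini-Hochberg method, p from that test was 0.217 for each of the 6.

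MT-ND2, MT-ND1 and MT-ATP6 had larger shares in all KD libraries than in any WT library. MT-ND2 made up 4.04%, 3.59% and 3.66% of the pool in WT and 5.44%, 5.28% and 5.41% in KD. The means were 3.76% ± 0.24 in WT and 5.38% ± 0.087 in KD (SD, n = 3). MT-ND1 made up 2.91% ± 0.17 in WT and 3.90% ± 0.28 in KD, and MT-ATP6 7.23% ± 0.45 and 9.41% ± 1.3 (SD, n = 3 in each group).

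MT-CO3, MT-ND6 and MT-CYB had smaller shares in all KD libraries than in any WT library. MT-CO3 made up 12.3%, 12.6% and 15.6% of the pool in WT and 9.62%, 9.50% and 10.1% in KD, so the smallest WT share was above the largest KD share. MT-ND6 held 1.67% ± 0.095 in WT and 1.26% ± 0.19 in KD (SD, n = 3 in each group). MT-CYB held 6.01% ± 0.42 in WT and 5.07% ± 0.59 in KD (SD, n = 3 in each group), with a narrow gap between 5.65% in WT replicate 3 and 5.45% in KD replicate 3.

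**Figure D3:**
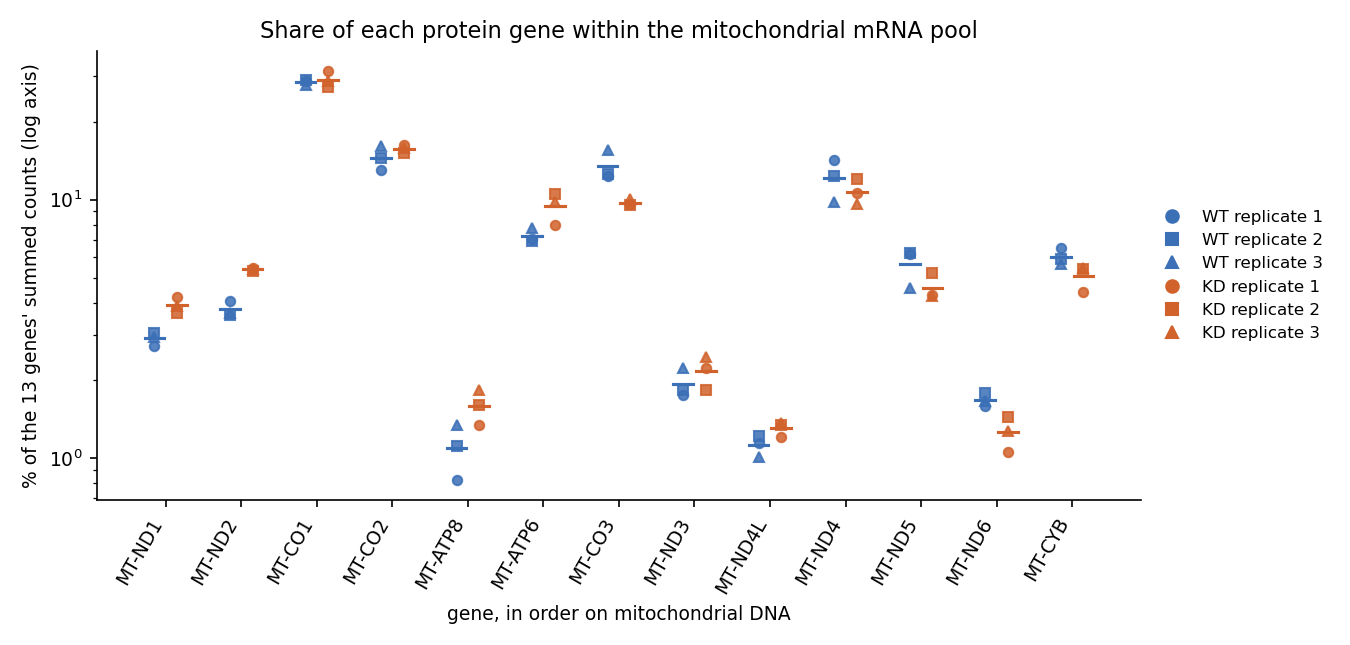
Share of each protein gene in the summed expected counts of the 13 protein genes (percent, log axis) in each library, with a bar at each group's mean (n = 3). WT and KD libraries do not overlap for MT-ND1, MT-ND2 and MT-ATP6, which are higher in KD, and for MT-CO3, MT-ND6 and MT-CYB, which are lower.

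MT-CO1 remained the largest part of the pool in every library, at 28.4% ± 0.68 in WT and 29.1% ± 2.1 in KD (SD, n = 3). MT-CO2 had the next highest mean, with 14.6% ± 1.5 and 15.7% ± 0.60 (SD, n = 3). The shares of both overlapped between the groups.

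Neighbouring genes of the heavy-strand transcript were then compared directly, as the ratio of the counts of each gene to those of the gene before it. This comparison was chosen after the values were seen. Of 13 heavy-strand pairs, 5 (38.5%) had ratios that did not overlap between KD and WT. Among 11393 ratios of neighbouring nuclear genes on the same strand the proportion was 24.6%, and the difference between these proportions was not tested. The nuclear ratios include genes with far fewer counts, so the proportions are not alike in counting error. Adjacent pairs share a gene, as MT-CO3 does in the pairs with MT-ATP6 and MT-ND3, so the ratios are not independent. MT-RNR2 over MT-RNR1 is the inverse of a ratio given earlier. The ratio of the light-strand gene MT-ND6 to MT-ND5 overlapped between the groups.

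The largest difference was at the MT-ATP6 to MT-CO3 junction printed above. There were 1.75, 1.82 and 2.02 counts of MT-CO3 per count of MT-ATP6 in WT and 1.21, 0.904 and 1.04 in KD. The log2 ratio was lower in KD by a mean of 0.83 (KD minus WT, -0.83), and between -0.94 and -0.73 with each library left out in turn. All 3 WT ratios exceeded all 3 KD ratios (p = 0.1 in a two-sided exact permutation test, its lower limit). Adjusted over the 14 ratios by the Benjamini-Hochberg method, p from that test was 0.28. The junction was singled out because its difference was the largest. Adding the counts of nuclear copies to both genes gave -0.84.

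On the other side of MT-CO3 the ratio went the opposite way. MT-ND3, which follows after MT-TG, had 0.142, 0.147 and 0.144 counts per count of MT-CO3 in WT and 0.232, 0.192 and 0.243 in KD. The WT ratios were close together, at 0.144 ± 0.0021 (SD, n = 3), and below all KD ratios. MT-CO3 was thus low in KD against both of its neighbours, whose own shares of the pool were higher (MT-ATP6) or overlapped (MT-ND3).

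Differences without overlap were also found at 3 other junctions. MT-CO1 over MT-ND2 was 7.58 ± 0.48 in WT and 5.41 ± 0.32 in KD, MT-RNR2 over MT-RNR1 was 4.78 ± 0.48 and 3.24 ± 0.54, and MT-ND4 over MT-ND4L was 10.7 ± 1.5 and 8.25 ± 1.1 (SD, n = 3 in each group). MT-ND4L and MT-ND4 share 7 bases and a messenger RNA, so their split by RSEM is uncertain. The other 8 heavy-strand ratios overlapped, and among them MT-CYB over MT-ND5 (1.08 ± 0.14 in WT and 1.12 ± 0.15 in KD, SD, n = 3) and MT-CO2 over MT-CO1 (0.513 ± 0.065 and 0.542 ± 0.021, SD, n = 3) had means within the spread of WT.

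**Figure D4:**
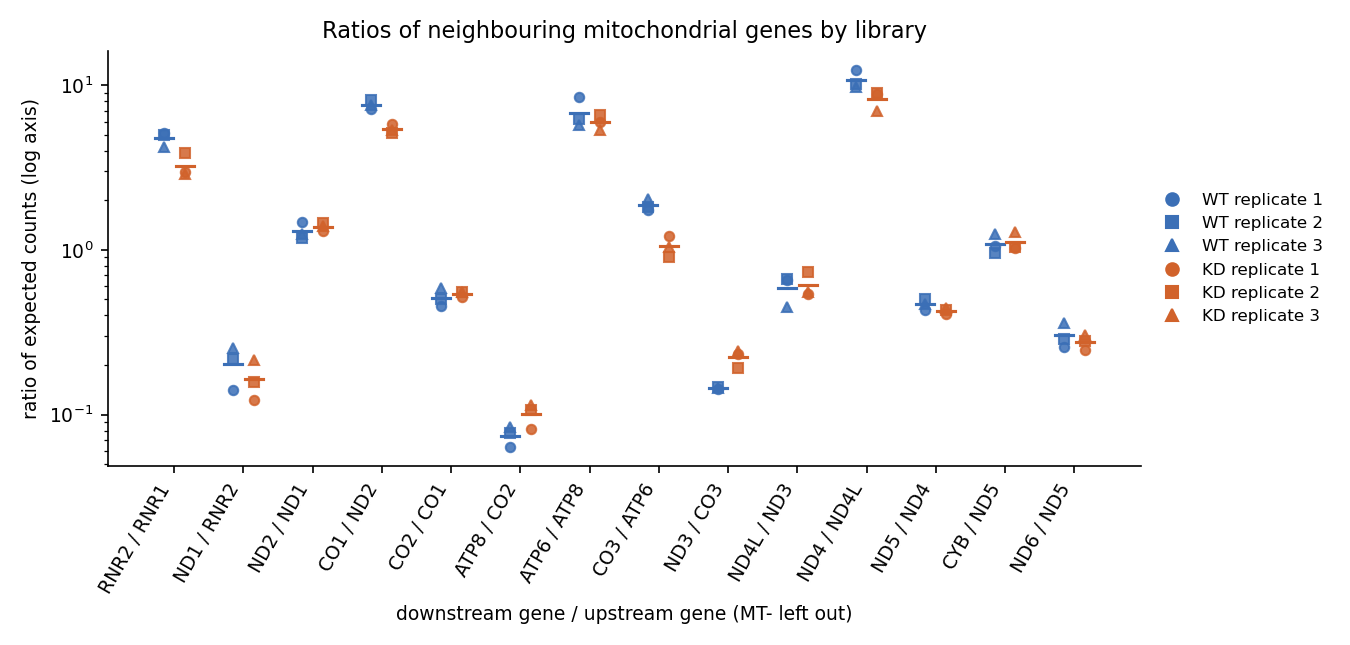
Ratio of expected counts (log axis) of each gene to the gene before it on mitochondrial DNA in each library, with a bar at each group's mean (n = 3). The ratio of MT-CO3 to MT-ATP6 lies between 1.75 and 2.02 in WT and between 0.904 and 1.21 in KD, and that of MT-ND3 to MT-CO3 is higher in all KD libraries.

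Transfer RNAs were near the floor. They are 59 to 75 bases long and carry no poly(A) tail, and the part of length and poly(A) selection in their low counts was not tested. All 22 together had between 112 and 298 counts per library. Of the 22, 14 were above 0 in at least 1 library, 8 were at 0 in every library and 4 passed the filter for testing. The 8 transfer RNAs of the light strand were all above 0, with 106 to 285 counts per library in sum, against 6 of 14 on the heavy strand, with 0 to 42 counts.

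The 4 tested transfer RNAs, MT-TA, MT-TN, MT-TC and MT-TY, form a cluster on the light strand between MT-ND2 and MT-CO1, and 0 of them passed the test. MT-TA, with the highest single value, had 35, 30 and 152 counts in WT and 92, 21 and 63 in KD, which overlapped widely. MT-TY, the transfer RNA for tyrosine, had 9, 14 and 15 counts in WT and 50, 29 and 33 counts in KD. All KD libraries lay above all WT libraries, but the log2 fold change of 1.45 had a standard error of 1.10 (edgeR adjusted p = 0.640), so it did not pass. Without a known strand setting, counts of this cluster and of heavy-strand RNA opposite to it cannot be told apart.

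Copies of mitochondrial sequence in the nuclear genome could share reads with these genes. Of 403 annotated copies, 29 were above 0 and together they held 1.24% as many counts as the mitochondrial genes. The proportion was 1.14%, 1.10% and 1.18% in WT, against 1.36%, 1.30% and 1.42% in KD, so all KD libraries lay above all WT libraries. With the counts of copies added to their genes, the shares of 6 of the 13 protein genes did not overlap between the groups, the same number as without them. The copy with the most counts was MTATP6P1 (chr1:569076-569756 on GRCh37), with a mean of 6533 counts or 11.5% of those of MT-ATP6, followed by MTND2P28 with 2645 counts (8.46% of MT-ND2) and MTCO1P12 with 1083 counts (0.545% of MT-CO1). Of the 8 copies tested in edgeR, 0 passed, and the lowest adjusted p of the 3 named was 0.774. RSEM divided reads that match both places, so the levels of MT-ATP6 and MT-ND2 are less certain than those of the others.

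The nuclear genes that make and use mitochondrial RNA were followed as 13 lists with 191 tested genes. By edgeR's adjusted p, 3 were higher in KD and 0 were lower, that is 1.57% against the 2.59% of all tested genes given above. The count was 1 without WT replicate 2, KD replicate 2 or KD replicate 3. Their median log2 fold change was -0.03, as over all genes. With the replicate block 6 were higher and 4 lower (5.24% against 9.52%).

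Genes of mitochondrial transcription showed no call among 9 tested. POLRMT, the mitochondrial RNA polymerase, was at 94.6, 128.5 and 108.2 CPM in WT and at 153.4, 157.8 and 136.3 CPM in KD, without overlap (log2 fold change 0.43, edgeR adjusted p = 0.330). TFAM, which packages mitochondrial DNA and starts its transcription, was at 24.97, 16.4 and 17.2 CPM in WT, against 17.2, 9.33 and 10.6 CPM in KD. The TFAM groups overlapped at the level of KD replicate 1 (log2 fold change -0.66, edgeR adjusted p = 0.398).

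In the degradation list 1 of 5 genes passed, PNPT1. It encodes polynucleotide phosphorylase, an exonuclease that degrades RNA within mitochondria, and is also known as a gene that type I interferon induces. PNPT1 was at 30.0, 13.9 and 23.2 CPM in WT and at 72.3, 44.7 and 70.2 CPM in KD (log2 fold change 1.48, SE 0.31, edgeR adjusted p = 0.0416). Its partner helicase gene SUPV3L1 had 17.6 ± 1.66 CPM in WT versus 25.8 ± 5.46 CPM in KD (SD, n = 3), without overlap and without passing the test (log2 fold change 0.56, edgeR adjusted p = 0.337).

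Among 15 genes of RNA stability 0 passed. LRPPRC, which with SLIRP protects mitochondrial messenger RNAs, was at 129.9 ± 77.0 CPM in WT versus 103.4 ± 35.1 CPM in KD (SD, n = 3), and SLIRP was at 40.97 ± 9.82 and 40.8 ± 5.19 CPM (SD, n = 3). Both overlapped between the groups. Among 23 genes of RNA processing and modification 0 passed, and with the replicate block 1 was higher, the ribosomal RNA methyltransferase gene NSUN4 (log2 fold change 0.64, edgeR adjusted p = 0.0365). ELAC2, which cuts the 3′ ends of transfer RNAs, was at 141.3 ± 34.7 and 167.2 ± 38.1 CPM (SD, n = 3), with overlap.

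Supply of nucleotides for mitochondrial DNA held the largest change of the 13 lists. SAMHD1, a phosphohydrolase of deoxynucleotides that is also known to be induced by interferon, rose from 11.1, 22.1 and 13.02 CPM in WT to 104.9, 101.6 and 159.9 CPM in KD (log2 fold change 2.98, SE 0.32, edgeR adjusted p = 0.00110). It was 1 of 10 genes called in its list. TYMP, thymidine phosphorylase, was at 6.16 ± 1.92 CPM in WT versus 15.8 ± 6.98 CPM in KD (SD, n = 3), without overlap (edgeR adjusted p = 0.13). It passed with the replicate block (log2 fold change 1.31, edgeR adjusted p = 0.0140), under DESeq2 (adjusted p = 0.0381) and in edgeR without the filter on low counts (adjusted p = 0.0265). Of 14 genes of mitochondrial DNA replication 0 passed, and with the block 1 was lower, ATAD3B (log2 fold change -0.74, edgeR adjusted p = 0.0181, or 0.0269 without block and filter).

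Translation of mitochondrial messenger RNAs, with 30 genes, and the regulators of mitochondrial biogenesis, with 9 tested genes, held 0 calls each. PPARGC1A, a coactivator of mitochondrial biogenesis that marks a melanoma subtype, was at 7.26, 1.39 and 1.82 CPM in WT, against 1.24, 1.59 and 1.19 CPM in KD. Its WT mean rested on WT replicate 1, the library with the highest mitochondrial level (log2 fold change -1.38, edgeR adjusted p = 0.471). ESRRA, a nuclear receptor that works with it, was higher with the replicate block (log2 fold change 0.60, edgeR adjusted p = 0.0283).

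The nuclear partners of the mitochondrially encoded subunits were measured in the same libraries. Of the nuclear subunit genes, 0 of 37 for complex I, 0 of 4 for complex II, 1 of 9 for complex III, 0 of 11 for complex IV and 0 of 15 for ATP synthase passed. The gene that passed was UQCRFS1, the Rieske iron-sulfur protein of complex III, which went from 96.1, 93.0 and 118.3 CPM in WT to 216.0, 226.1 and 242.5 CPM in KD (log2 fold change 1.16, SE 0.19, edgeR adjusted p = 0.0125). Its nuclear copy UQCRFS1P1, with which RSEM could divide reads, had 249, 249 and 264 counts in WT and 882, 524 and 752 counts in KD, so both rows were higher. MT-CYB of the same complex had a log2 fold change of -0.65. With the replicate block NDUFB2 of complex I (log2 fold change -0.55, edgeR adjusted p = 0.0447) and ATP5MC2 and ATP5MG of ATP synthase (log2 fold changes -0.77 and -0.62, adjusted p = 0.0117 and 0.0477 from edgeR) were lower. ATP5MC2 also passed under DESeq2 (adjusted p = 0.0127) and in edgeR without the filter on low counts (adjusted p = 0.0303). The median log2 fold changes of the nuclear subunit genes were -0.05 for complex I, 0.15 for complex II, -0.18 for complex III, -0.04 for complex IV and -0.31 for ATP synthase, where all tested genes had -0.03.

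**Figure D5:**
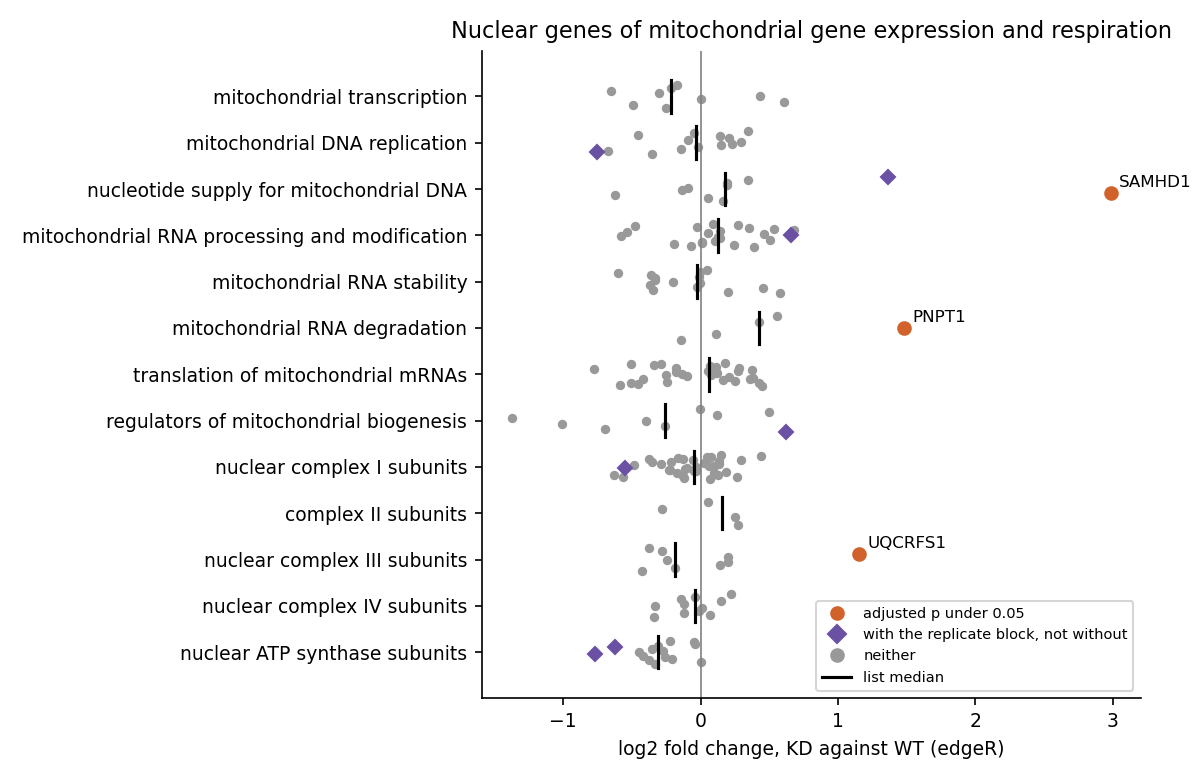
Log2 fold change (KD against WT, edgeR) of the tested genes of 13 nuclear lists, each point a gene and each bar the list's median. SAMHD1, PNPT1 and UQCRFS1 passed at an adjusted p under 0.05, diamonds passed with the replicate block but not without it, and the other genes passed in neither fit.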

How the data were processed

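Poly(A)-selected, directional RNA-seq libraries of M14 cells (3 STAG2 WT, 3 STAG2 KD) were used. The deposited values are expected counts per gene, which the authors obtained with STAR on hg19 and RSEM and did not scale between libraries. UCSC releases of hg19 have carried an older mitochondrial sequence, and which one was mapped to is not given in the sources used here. The positions and sequences printed are those of GRCh37 and GENCODE, to which all 37 mitochondrial gene identifiers matched.

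Expected counts were rounded, and 15605 genes passed edgeR's filterByExpr (edgeR 4.0.16, R 4.3.3). The quasi-likelihood test set KD against WT with TMM scaling, p was adjusted over all tested genes by the Benjamini-Hochberg method, and 0.05 was the threshold for a call. The standard error is the log2 fold change divided by the square root of F. Shares and ratios were compared by whether the groups overlap and by exact permutation tests, which reach 0.1 at best. Those tests made no use of the replicate numbers. The study's RNA-seq methods name no pairing of libraries. After subtraction of the group means, log2 CPM of same-numbered libraries correlated with r = 0.597, 0.462 and 0.367 across 9291 genes. Replicate 1 of either group against other numbers gave -0.531 to -0.392. WT replicate 2 with KD replicate 3 gave 0.296, and WT replicate 3 with KD replicate 2 gave 0.21. The values thus set replicate 1 apart more clearly than they pair replicates 2 and 3. A fit with the replicate block, which takes the numbers as pairs, is given where it changed a call. Alternatives were DESeq2 1.42.0, limma-voom (limma 3.58.1), upper-quartile scaling, scaling by nuclear genes alone, other filters, counts not rounded and leaving out each library or, chosen after seeing the data, replicate 1 of both groups. The methods were tested on simulated data, and the outcome of that is not given here.

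The members, gene lists and tests were chosen with earlier results of these data known. The 37 members were fixed by rule, and the transfer RNAs that were not tested are given mainly as sums and counts. STAG2, POLRMT, TFAM, PPARGC1A, LRPPRC, PNPT1 and SUPV3L1 and up to 4 called genes of each list and direction were named by rule, with the 3 nuclear copies of most counts. SLIRP, ELAC2, RN7SL1, PMEL and the other markers named were chosen after their values were seen. Of the 57820 genes, 33470 were at 0 in every library.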

Additional observations from a re-analysis of the deposited data

How the results depend on the processing

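The calls rested on few libraries. Of the 13 protein genes 1 was called under each of 4 alternatives, MT-CO3 under DESeq2, with the replicate block and with the block and nuclear scaling together (a fit chosen after seeing the data), and MT-ND6 without a filter on low counts. With any 1 library left out 0 were called. Of the 2 ribosomal RNA genes 1 was called (MT-RNR1) in both block fits, and 0 to 1 with a library left out, the call coming without WT replicate 1. Genes of the nuclear lists called numbered 3 at first, 5 under DESeq2 (TYMP and ATP5MC2 added), 7 without the filter (these, ATAD3B and MITF added), 10 in both block fits, 1 at an adjusted p under 0.01 and 1 to 3 with a library left out, with 1 left without WT replicate 2, KD replicate 2 or KD replicate 3. Over all genes the 404 calls became 979 under DESeq2, 1103 without the filter, 1486 with the replicate block, 1491 with the block and nuclear scaling, 137 at 0.01, and 121 to 531 with a library left out. STAG2 kept its direction (log2 fold change -2.63 to -1.68 with a library left out), and its adjusted p rose above 0.05 without WT replicate 2 or 3 or KD replicate 2 or 3. Without replicate 1 of both groups, a setting chosen after seeing the data, 0 protein genes, 1 ribosomal RNA gene (MT-RNR1), 3 genes of the nuclear lists and 757 genes in all were called, and the log2 fold change of the summed protein genes was 0.04. The 6 shares without overlap became 6 to 10, with 10 without WT replicate 3, where fewer libraries make a lack of overlap easier to reach. The log2 fold change of the summed protein genes was -0.38, and -0.58 to 0.00 with a library left out. Leaving out a library leaves fewer samples to test, and the cause of the other differences was not tested.

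Genes with small differences changed sign with a library left out, over ranges of -0.11 to 0.37 (MT-ND1), -0.12 to 0.56 (MT-ND2), -0.55 to 0.032 (MT-CO1), -0.43 to 0.025 (MT-CO2), -0.20 to 0.36 (MT-ATP6), -0.42 to 0.058 (MT-ND3), -0.35 to 0.23 (MT-ND4L), -0.95 to 0.75 (MT-TA) and -0.082 to 1.59 (MT-TC) on the log2 scale. MT-ATP6 was also at -0.02 under upper-quartile scaling. Without replicate 1 of both groups MT-CO1 (0.029), MT-CO2 (0.054), MT-ND3 (0.084), MT-ND4L (0.333) and MT-ND4 (0.043) were above 0. None of these was called in any fit. The replicate block changed no call among the mitochondrial genes other than those of MT-CO3 and MT-RNR1. Of the 22 transfer RNAs 18 had too few counts to be tested, and the part of depth in this was not tested.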
